A study of Mus musculus with 14 samples.

Results

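The response of mouse macrophages to poly(I:C), a synthetic mimic of double-stranded viral RNA, was measured by comparing the 2 arrays of poly(I:C)-treated cells with the 2 arrays of untreated cells, which are 4 of the 14 microarrays of the series. The arrays were chosen by their titles, and each poly(I:C) array was paired with the untreated array that shares its array set. Whether the sets differ in cell preparation or in array processing was not tested. Set A holds the array numbered 1 of each group compared here and set B the array numbered 2, and the sets were told apart by whether the 10th percentile of intensity lay above or below 0.1. All 14 arrays hold RNA of primary macrophages elicited with thioglycollate, an irritant broth, from female C57BL/6 mice aged 6 weeks. The cells of the 4 arrays compared received poly(I:C) or no treatment, the other 10 arrays hold cells given LPS (bacterial lipopolysaccharide), or either stimulus combined with GW3965 or GW7845, and the title of the series concerns the repression of Toll-like receptor responses by PPARg and LXRs. The series states 2 biological replicates for each condition and does not say whether a replicate is 1 animal or a pool. The p-values therefore concern these preparations and not a known number of animals. They measure the spread left over all 14 arrays after the difference that the groups share between set A and set B is removed. Neither the dose of poly(I:C) nor the duration of treatment is stated in the labels. No vehicle is named for the untreated cells. Elicited cells are a mixture recruited by an irritant, so the untreated state is not that of resident macrophages.

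Double-stranded RNA is a sign of viral replication. In macrophages it is sensed by TLR3 in endosomes, through the adaptor TRIF, and by the helicases RIG-I and MDA5 (encoded by Ifih1) in the cytosol, through MAVS. Both routes activate the kinases TBK1 and IKK-epsilon and the factors IRF3, IRF7 and NF-kB, which induce type I interferon and inflammatory cytokines. Secreted interferon then acts back on the cells through its receptor and the factor ISGF3, which holds STAT2 and IRF9, and induces a large set of antiviral genes.

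The values are intensities that the authors had scaled so that the median probe of each array is at 1, and on the log2 scale that median is at 0. The log2 fold change is poly(I:C) minus untreated, averaged over the 2 array sets, with its standard error (SE). A probe was called when its Benjamini-Hochberg adjusted p in limma, over all probes tested, was under 0.05. The number of arrays limits the precision: the median SE was 0.39, and for 1868 of 9515 probes the 95% interval of the change lay within 2-fold in either direction. Values under a floor of 0.0686 were raised to it, and a fold change against a value at the floor is a lower bound.

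Macrophage genes were bright in both groups. Lysozyme Lyz2 was at 1790 and 1160 in poly(I:C) cells and at 1770 and 998 in untreated cells, with a log2 fold change of 0.11 (95% interval -0.46 to 0.69). Of 25 macrophage identity genes tested, 4 were called higher and 1 lower, with a median log2 fold change of 0.01, against 0.10 over all 8410 genes tested. Their summed intensity was 9380 and 6250 in poly(I:C) cells and 10000 and 5820 in untreated cells. Quantile normalization gave 4 lower calls in this list, and the counts higher were 3 without poly(I:C) 1 or without untreated 1, and 2 without either of the other arrays or without the block. Markers of other cell types were mostly not called, as were most probes tested. Over all probes, 10.7% were called higher and 8.07% lower. The T and NK cell list had 1 of 26 genes called, with summed intensities of 105 and 64.6 in poly(I:C) cells and 56.2 and 34.8 in untreated cells. That gene was Klrk1, the activating receptor NKG2D, at 46.0 and 22.9 in poly(I:C) cells and at 0.425 and 0.151 in untreated cells. The log2 levels of Cd3e were -2.67 and -3.67 in poly(I:C) cells and -1.64 and -3.87 in untreated cells (Cd3e, a defining T cell gene, was named after its values were seen). All 4 values lay below the array median, and the set B ones lay at or near the floor of -3.87. Brighter members of the list that were not called went both ways in log2 fold change. Cd247 was at 0.54 (95% interval -0.05 to 1.12), Gzma at 0.43 (95% interval -0.26 to 1.12) and Il2rb at -0.46 (95% interval -1.05 to 0.14). B cell markers had 1 of 17 called higher and 3 lower, with summed intensities of 53.7 and 57.2 in poly(I:C) cells and 52.8 and 49.3 in untreated cells. Neutrophil markers had 2 of 13 higher and 1 lower, with summed intensities of 73.7 and 106 in poly(I:C) cells and 43.9 and 30.1 in untreated cells. The higher calls were on Camp, the antimicrobial peptide cathelicidin, with a log2 fold change of 4.71 (SE 0.35), and on Chil1, at 3.25 (SE 0.49). Chil1 was at 10.3 and 68.7 in poly(I:C) cells and at 1.64 and 4.81 in untreated cells. In set B it made up 68.7 of the 106 summed in poly(I:C) cells. The granule protease Elane had log2 levels of -1.85 and -3.87 in poly(I:C) cells and of -2.15 and -3.87 in untreated cells. Elane was named after its values were seen. Brighter neutrophil markers that were not called were Csf3r, with a log2 fold change of 1.37 (95% interval 0.06 to 2.69), and Ctsg, at -0.34 (95% interval -1.12 to 0.44). Dendritic cell markers had 3 of 8 called higher, with summed intensities of 99.0 and 54.7 in poly(I:C) cells and 63.1 and 33.1 in untreated cells, and 1 of the 8 without poly(I:C) 1 or without untreated 2. Lists for mast cells and their relatives (15 tested) and for fibroblasts, mesothelium and endothelium (27 tested) had 1 and 2 genes called higher, and none lower. Without the block no B cell, mast cell or fibroblast list gene was called in either direction, and of the neutrophil markers 1 was higher and none lower, as no lower call was made there without any 1 array. The part of other cell types in the results below was not tested. In bulk RNA, a change in the number of cells of a type and a change in RNA per cell cannot be told apart.

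Poly(I:C) changed a wide share of the array. Of 9515 probes tested, 1018 (10.7%) were called higher and 768 (8.07%) lower in poly(I:C) cells than in untreated cells. Increases were the larger: 443 probes rose at least 4-fold, 107 at least 16-fold and 41 at least 64-fold, while 160 probes fell at least 4-fold, 5 at least 16-fold and 0 at least 64-fold. Probes called higher held 29.0% and 31.4% of the summed intensity of the poly(I:C) arrays and 6.82% and 8.21% of that of the untreated arrays. Probes called lower held 1.89% and 2.32% on the poly(I:C) arrays and 6.59% and 7.86% on the untreated arrays. Of the 1018 probes called higher, 581 already lay above the array median on both untreated arrays, and 47 lay in the lowest 20% of both. The median splits the probes of each array evenly, and the share of all probes above it on both arrays is not given here. Of the 768 probes called lower, 640 lay above the median on both untreated arrays and 400 still did so on both poly(I:C) arrays.

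**Figure D1:**
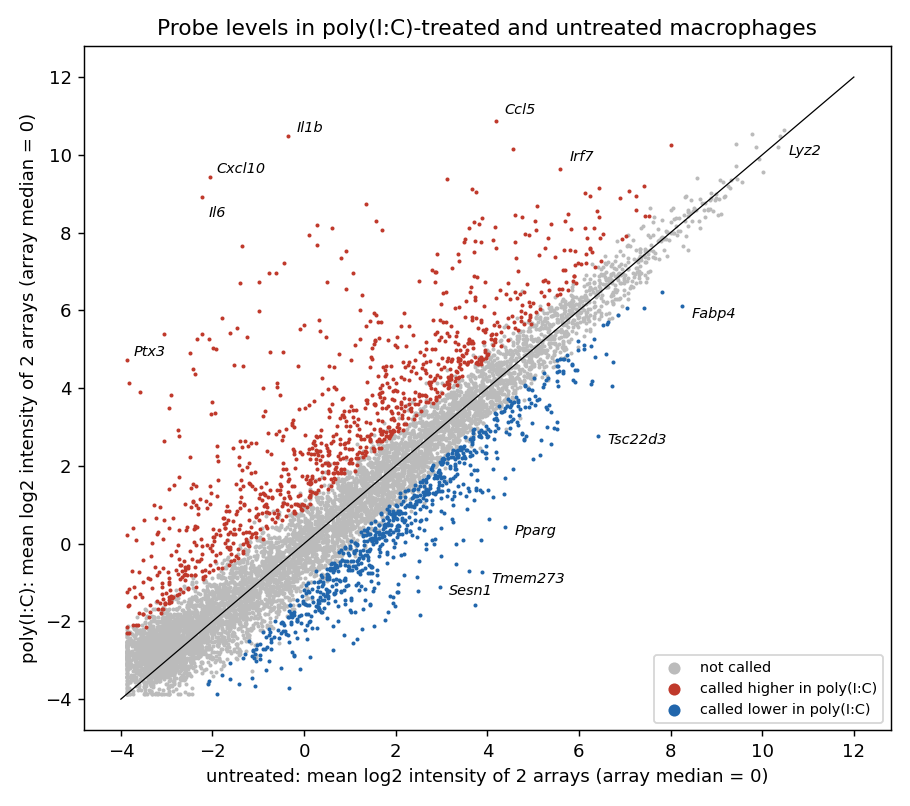
Mean log2 intensity of each probe on the 2 poly(I:C) arrays (vertical axis) against the 2 untreated arrays (horizontal axis), with the array median at 0. The 1018 probes called higher in poly(I:C) cells lie above the diagonal and reach farther from it than the 768 called lower.

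All 1786 called probes moved the same way in both array sets, which a call on the average over the sets makes likely in advance. The log2 fold changes of set A and set B had a Pearson correlation of 0.802 across all probes tested, which are not independent of each other, and the sets share no array of this comparison. Both poly(I:C) arrays lay above both untreated arrays for 979 of the 1018 probes called higher, and below them for 713 of the 768 called lower. Over all probes tested, 20.4% lay apart in this way upward and 16.9% downward. Without the array-set block the calls numbered 848 (8.91%), of which 582 (6.12%) were higher and 266 (2.80%) lower. Leaving out 1 array at a time gave 1087 calls without poly(I:C) 1, 1141 without poly(I:C) 2, 1176 without untreated 1 and 1224 without untreated 2, and 559 of the higher and 232 of the lower calls were made in all 4 of these fits. Quantile normalization turned the balance of calls: 849 probes were then higher and 975 lower, so 46.5% of the calls were higher, against 57.0% with the deposited scaling. It moved the median log2 fold change of all probes by -0.17, to -0.08 against 0.10, so small shared shifts of gene groups depend on the scaling.

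**Figure D2:**
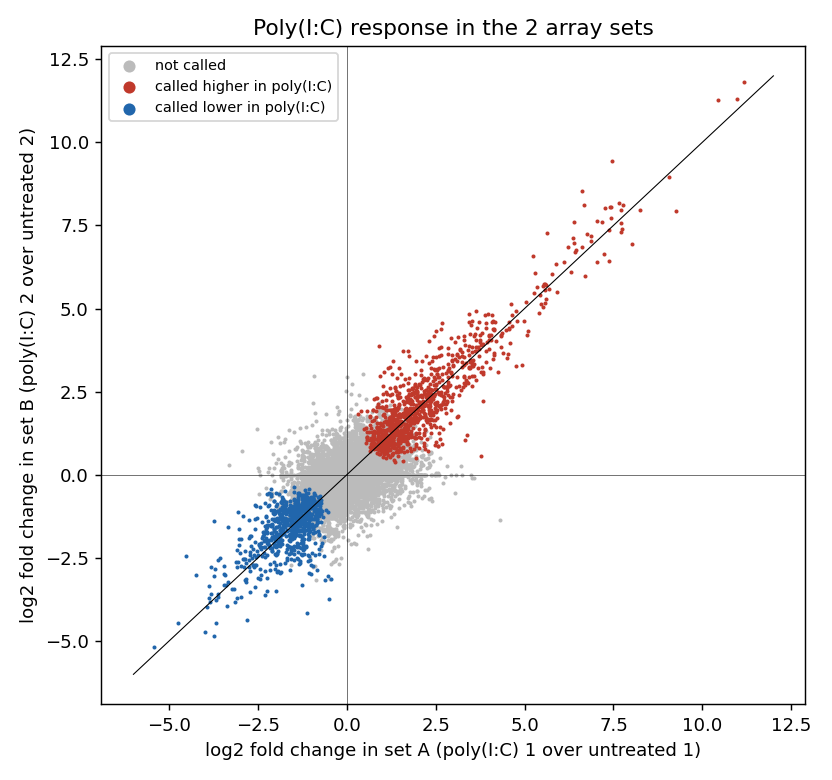
Log2 fold change of each probe in set B (poly(I:C) 2 over untreated 2, vertical axis) against set A (poly(I:C) 1 over untreated 1, horizontal axis), with the line of equal change. Called probes fall in the upper right and lower left of the plot, and the correlation over all probes is 0.802.

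Secreted mediators headed the increases. Cxcl10, a chemokine for activated T and NK cells, had an intensity of 979 and 489 in poly(I:C) cells and of 0.422 and 0.136 in untreated cells. Its log2 fold change of 11.49 (SE 0.38, adjusted p 9.7e-11) is about 2880-fold, and its untreated levels are below the array median. Il6, the fever-inducing cytokine interleukin-6, was at 640 and 362 in poly(I:C) cells, against 0.317 and 0.143 in untreated cells. Il1b, the precursor of interleukin-1 beta, was at 2200 and 942 in poly(I:C) cells and at 1.59 and 0.381 in untreated cells. The log2 fold changes of Il6 and Il1b were 11.14 (SE 0.33) and 10.85 (SE 0.59). The next largest was Il12a, the smaller subunit of interleukin-12, at 258 and 156 in poly(I:C) cells and at 0.485 and 0.313 in untreated cells. Ptx3, a soluble pattern recognition protein, was at 41.7 and 16.8 in poly(I:C) cells and at or under the floor on both untreated arrays, so it rose at least 386-fold.

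**Figure D3:**
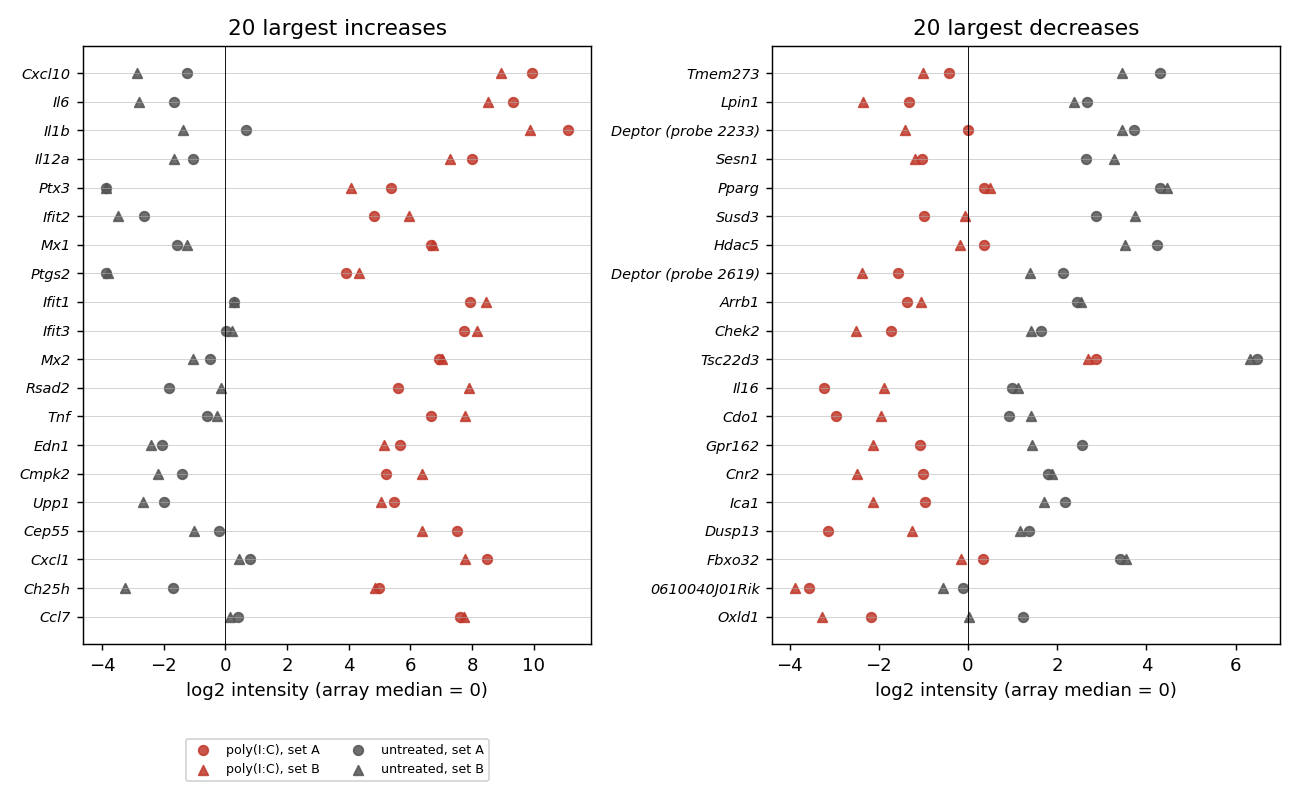
Log2 intensity (array median at 0) on each of the 4 arrays for the 20 largest increases and the 20 largest decreases among called probes with 1 gene symbol, with poly(I:C) in red, untreated in grey, circles for set A and triangles for set B. Rows were chosen so that both poly(I:C) arrays lie beyond both untreated arrays, and Deptor appears with 2 probes.

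Antiviral effectors rose as a group. Of 27 such genes tested, 24 were called higher and 1 lower, with a median log2 fold change of 3.64. The lower call, on Apobec1 at -0.99 (SE 0.26), was not made without the block or without any 1 array. Ifit1, which binds viral RNA that lacks a host-type cap, was at 245 and 349 in poly(I:C) cells and at 1.21 on both arrays of untreated cells. Its relatives Ifit2 and Ifit3 rose by 8.45 (SE 0.50) and 7.84 (SE 0.39) on the log2 scale. Mx1 and Mx2, GTPases that block virus replication, rose by 8.10 (SE 0.26) and 7.74 (SE 0.27); the Mx1 allele of C57BL/6 mice is known not to give a working protein. Rsad2, or viperin, which makes a nucleotide that stops viral RNA synthesis, differed between the array sets: it was at 47.8 and 241 in poly(I:C) cells and at 0.283 and 0.901 in untreated cells. Both set B values were the higher ones, and within each set the fold was similar, so the log2 fold change was 7.73 (SE 0.36). Cmpk2, a mitochondrial nucleotide kinase encoded next to Rsad2, rose by 7.59 (SE 0.56). Isg20, an RNA exonuclease, rose by 6.53 (SE 0.29), and Adar, the editor of double-stranded RNA, by 2.31 (SE 0.24). Among the members not called, Ifitm2, which hinders virus entry, had a log2 fold change of 0.59 (95% interval -0.51 to 1.68).

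Interferon-inducible GTPases of the GBP and IRG families, which attack the vacuoles of intracellular microbes, rose as a whole group. All 11 of 11 tested members were called higher, in every fit that left out 1 array, and 10 of them without the block. Their median log2 fold change was 5.43. Tgtp1 was at 451 and 405 in poly(I:C) cells and at 2.68 and 2.45 in untreated cells, a log2 fold change of 7.38 (SE 0.25). Gbp4 rose by 7.33 (SE 0.27), Iigp1 by 6.74 (SE 0.39) and Ifi47 by 5.29 (SE 0.26). Members of such families can be close in sequence, and whether a probe also binds a relative was not tested. Schlafen and Ifi200 genes, interferon-induced families named for growth arrest and DNA sensing, had 11 of 14 called higher and a median of 3.02. Slfn4 rose by 6.93 (SE 0.29) and Slfn1 by 5.64 (SE 0.24). The system that joins the ubiquitin-like protein ISG15 to targets, with the TRIM ligases, had 11 of 18 higher and none lower. Within it Isg15 rose by 4.15 (SE 0.47), its activating enzyme Uba7 by 3.25 (SE 0.51), its conjugating enzyme Ube2l6 by 2.35 (SE 0.23) and the ligase Herc6 by 5.38 (SE 0.31), while Trim28, a corepressor of endogenous retroviruses, was not called at -0.10 (95% interval -0.71 to 0.51).

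Sequence upstream of genes with large changes is shown for those that hold the letters of a known element. The windows are the 250 bases before the annotated start of each gene, from RefSeq on GRCm38.p6, read 5′ to 3′ in the direction of the gene. For 6728 genes tested, a window was at hand. The interferon-stimulated response element (ISRE) was searched as GAAA, 2 of any base and GAAA, and the NF-kB element as GGG, 2 of any base and TTTCC, both on both strands. The 3 ISRE windows are those of Cxcl10 (chr5:92348890-92349139, minus strand), Ifit1 (chr19:34640639-34640888, plus strand) and Ifit3 (chr19:34583279-34583528, plus strand), with matches in capitals.
Cxcl10: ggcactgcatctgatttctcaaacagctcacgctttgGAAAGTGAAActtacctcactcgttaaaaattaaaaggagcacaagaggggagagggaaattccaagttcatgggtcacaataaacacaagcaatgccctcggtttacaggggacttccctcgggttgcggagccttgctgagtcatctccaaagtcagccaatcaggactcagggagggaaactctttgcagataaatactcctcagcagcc
Ifit1: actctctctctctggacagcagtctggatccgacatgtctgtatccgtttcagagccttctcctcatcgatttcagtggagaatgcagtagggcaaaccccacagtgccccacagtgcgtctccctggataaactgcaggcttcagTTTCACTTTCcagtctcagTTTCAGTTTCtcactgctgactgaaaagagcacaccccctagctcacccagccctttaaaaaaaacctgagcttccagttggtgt
Ifit3: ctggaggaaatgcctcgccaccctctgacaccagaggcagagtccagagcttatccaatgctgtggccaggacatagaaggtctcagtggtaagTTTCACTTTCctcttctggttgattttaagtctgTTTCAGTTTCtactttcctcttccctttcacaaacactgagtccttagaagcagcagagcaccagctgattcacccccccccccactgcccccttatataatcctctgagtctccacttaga
The 2 NF-kB windows are those of Il6 (chr5:30012864-30013113, plus strand) and Cxcl1 (chr5:90890995-90891244, plus strand), with matches in capitals.
Il6: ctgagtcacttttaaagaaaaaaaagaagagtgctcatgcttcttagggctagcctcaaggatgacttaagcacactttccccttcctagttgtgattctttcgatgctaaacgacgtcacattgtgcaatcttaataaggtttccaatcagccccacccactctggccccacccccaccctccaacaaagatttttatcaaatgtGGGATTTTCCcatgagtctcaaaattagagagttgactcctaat
Cxcl1: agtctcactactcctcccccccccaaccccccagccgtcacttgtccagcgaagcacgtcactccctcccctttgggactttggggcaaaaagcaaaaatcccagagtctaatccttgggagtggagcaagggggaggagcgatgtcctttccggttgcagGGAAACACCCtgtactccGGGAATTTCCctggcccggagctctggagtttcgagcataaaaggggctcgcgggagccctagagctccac
The forkhead letters were searched as gtaaaca, and the window of Gpr146 (chr5:139389654-139389903, plus strand) is shown among the largest decreases that hold them, with the match in capitals.
Gpr146: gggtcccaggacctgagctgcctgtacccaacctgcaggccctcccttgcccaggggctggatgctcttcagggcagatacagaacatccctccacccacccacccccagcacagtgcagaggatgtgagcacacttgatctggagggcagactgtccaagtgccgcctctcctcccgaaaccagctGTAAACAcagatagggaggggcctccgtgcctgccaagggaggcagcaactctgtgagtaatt
Gpr146, an orphan receptor, fell by 2.14 (SE 0.29) on the log2 scale. Cxcl10, Il6 and Gpr146 each hold 1 match, and Ifit1, Ifit3 and Cxcl1 hold 2. The matches in Ifit1 start 85 and 104 bases before the gene, and that in Il6 starts 44 bases before it.

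Across the 6728 windows, 3.51% held the ISRE letters. The share was 6.28% among 716 genes called higher, 13.2% among the 152 of them that rose at least 8-fold, and 2.37% among 548 genes called lower. For NF-kB the shares were 5.26% among the genes that rose at least 8-fold, 2.93% among all called higher and 2.01% among those called lower, against 1.74% of all windows. The AP-1 letters tgantca were in 13.2% of the windows of the genes that rose at least 8-fold and in 6.82% of all. A TATA box, searched as tataaa, was in 17.1% of the genes that rose at least 8-fold and in 10.4% of all windows, and the E-box cacgtg was in 2.63% against 10.0%. The cyclic AMP element tgacgtca (1.97% against 2.65%) and the forkhead letters gtaaaca (5.26% against 2.93%) were searched in the same way. The forkhead letters were in 3.65% of the windows of all genes called lower and in 1.72% of those that fell at least 4-fold, which are 2 of 116. No motif string contains another, although matches may overlap in part. These shares are descriptions of letters in a short window, and binding was not measured.

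The sensing machinery itself was among the induced genes. Of 28 sensors and adaptors of double-stranded RNA and of the Toll-like receptor system, 17 were called higher and none lower, with a median of 1.79. Ifih1, the cytosolic sensor MDA5, was at 667 and 464 in poly(I:C) cells and at 13.7 and 11.9 in untreated cells, a log2 fold change of 5.45 (SE 0.24). Tlr3, the endosomal receptor of double-stranded RNA, was at 6.12 and 8.38 in poly(I:C) cells and at 0.372 and 0.907 in untreated cells, a log2 fold change of 3.62 (SE 0.35). Both lay well above the untreated arrays in both sets. Dhx58, the regulator LGP2, rose by 4.01 (SE 0.44), Eif2ak2, the kinase PKR that halts translation on binding double-stranded RNA, by 3.77 (SE 0.31), and Zbp1, a sensor of Z-form nucleic acid, by 4.25 (SE 0.28). The receptors of bacterial lipoproteins rose too, Tlr2 by 4.50 (SE 0.22), Tlr1 by 2.40 (SE 0.24) and Tlr6 by 1.95 (SE 0.25), and so did Cd14, a co-receptor for LPS, by 2.86 (SE 0.29). Tlr4, the LPS receptor, was not called at -0.40 (95% interval -1.15 to 0.35), nor was its partner Ly96 at 0.79 (95% interval -0.13 to 1.72). Tlr9, for bacterial DNA, was at 0.13 (95% interval -0.55 to 0.80) and Tlr5, for flagellin, at 1.06 (95% interval -0.12 to 2.24).

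Downstream of the sensors, the kinases Tbk1 and Ikbke rose by 1.64 (SE 0.30) and 1.19 (SE 0.23). The adaptor Myd88 rose by 2.54 (SE 0.24) and the TBK1-binding protein Tank by 2.78 (SE 0.25). Adaptors and kinases that were not called were Traf6 at 0.88 (95% interval -0.15 to 1.92), Tirap at 0.61 (95% interval -0.18 to 1.40) and Irak1 at -0.73 (95% interval -1.31 to -0.15, adjusted p 0.081). The helicases Ddx21 and Dhx36 were not called either, at 0.34 (95% interval -0.37 to 1.06) and 0.32 (95% interval -0.51 to 1.16), nor was Ly86, which pairs with Cd180, at 0.94 (adjusted p 0.054). Calls on 2 sensors depended on single arrays. Cd180, a relative of TLR4, had a log2 fold change of 1.09 and was not called without any 1 of the 4 arrays (adjusted p 0.078 without poly(I:C) 1, 0.22 without poly(I:C) 2, 0.11 without untreated 1 and 0.16 without untreated 2) or without the block (adjusted p 0.10). Ifi204, a DNA sensor, had a log2 fold change of 4.28 and an adjusted p of 0.065 without poly(I:C) 1.

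Interferon regulatory factors had 6 of 10 members called higher and none lower. Irf7, the factor that amplifies type I interferon, was at 774 and 808 in poly(I:C) cells and at 55.4 and 41.9 in untreated cells, a log2 fold change of 4.04 (SE 0.24). Irf1 rose by 3.90 (SE 0.26) and Irf9, the DNA-binding part of ISGF3, by 1.93 (SE 0.38). Batf and Prdm1, repressors and partners of these factors that the list also holds, rose by 2.60 (SE 0.39) and 2.49 (SE 0.29). Irf3, which acts at once from a ready pool of protein, was not called at -0.13 (95% interval -0.70 to 0.44). Irf4 was at -0.03 (95% interval -0.80 to 0.74), Irf2 at 1.10 (95% interval 0.05 to 2.14, with untreated 2 at the floor) and Irf8 at 1.36 (95% interval 0.30 to 2.42, adjusted p 0.073). Irf5 was called at 1.16, but not without poly(I:C) 2 (log2 fold change 0.55, adjusted p 0.44), untreated 1 (1.44, adjusted p 0.064), untreated 2 (0.88, adjusted p 0.27) or the block (adjusted p 0.25).

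Of the interferons themselves, 2 were tested and both rose. Ifna7, a type I interferon, was at 25.4 and 10.7 in poly(I:C) cells and at 0.750 and 0.582 in untreated cells, a log2 fold change of 4.64 (SE 0.34). Ifng, the type II interferon known mostly from T and NK cells, was at 2.40 and 0.985 in poly(I:C) cells and at 0.0788 and 0.0995 in untreated cells, a log2 fold change of 4.12 (SE 0.63). The Ifng level stayed near the array median at its highest and close to the floor in untreated cells. Interferon receptors and JAK-STAT components had 11 of 29 called higher and 3 lower, with a median of 1.04. Without single arrays, 9 or 10 were higher and 1 or 2 lower, and without the block 9 and 1. Stat2 rose by 3.46 (SE 0.34) and Jak2 by 3.45 (SE 0.27), while the receptor chain Ifnar1 was not called at 0.57 (95% interval -0.21 to 1.36). Feedback inhibitors of this pathway were high among the changes. Socs1 was at 88.9 and 44.4 in poly(I:C) cells and at 0.754 and 0.336 in untreated cells, a log2 fold change of 6.96 (SE 0.35). Socs3 rose by 4.84 (SE 0.26), Cish by 2.77 (SE 0.43), Socs2 by 2.52 (SE 0.32) and the phosphatase Ptpn2 by 2.06 (SE 0.30), and Socs6 fell by 1.81 (SE 0.25).

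Cytokines were split between a strongly induced group and many that were not called. Of 33 tested, 15 were higher and 2 lower, with a median of 0.93, and 1 was lower without poly(I:C) 1, untreated 1 or the block. Tnf, the trimeric cytokine of acute inflammation, was at 101 and 218 in poly(I:C) cells and at 0.656 and 0.828 in untreated cells, a log2 fold change of 7.65 (SE 0.33). Inhba, a subunit of activin A, rose by 7.02 (SE 0.67), Il1a by 6.71 (SE 0.72), Csf2, the growth factor GM-CSF, by 5.70 (SE 0.74) and Il18 by 4.48 (SE 0.26). The anti-inflammatory cytokine Il10 was at 2.80 and 1.04 in poly(I:C) cells and at 0.262 and 0.155 in untreated cells, a log2 fold change of 3.08 (SE 0.31). Both Il10 values in poly(I:C) cells lay above both untreated ones. Il16, a T cell attractant, fell by 3.62 (SE 0.58). Tgfb1 was not called at 0.72 (95% interval -0.04 to 1.49), nor was Mif at 0.62 (95% interval -0.16 to 1.40).

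Chemokines for many kinds of leukocyte rose, with 13 of 19 CC and 7 of 14 CXC, CX3C and XC members called higher and none lower. Ccl5, which attracts T cells and monocytes, was at 2720 and 1270 in poly(I:C) cells and at 32.6 and 10.1 in untreated cells, a log2 fold change of 6.68 (SE 0.33). The monocyte attractants Ccl7, Ccl12 and Ccl2 rose by 7.39 (SE 0.36), 6.90 (SE 0.49) and 6.26 (SE 0.35), and Ccl3 and Ccl4, known as macrophage inflammatory proteins, by 5.58 (SE 0.35) and 4.08 (SE 0.45). Cxcl1, a neutrophil attractant, rose by 7.51 (SE 0.49), and the interferon-induced Cxcl9 by 5.38 (SE 0.31). Cxcl11, another ligand of CXCR3, rose by at least 6.44 on the log2 scale, with untreated 2 at the floor. Ccl22 and Ccl24, often listed with alternative activation, rose by 2.12 (SE 0.33) and 2.35 (SE 0.38). Ccl6 was bright in both groups and was not called at 0.13 (95% interval -0.58 to 0.83). Of 25 receptors for chemokines and other chemoattractants tested, 6 were higher and 1 lower, among them the formyl peptide receptor Fpr2 (6.34, SE 0.26) and the decoy-like receptor Ccrl2 (3.65, SE 0.28), and no lower call was made without poly(I:C) 1, untreated 2 or the block. Over all probes tested, 10.7% were called higher and 8.07% lower, and without the block 4 of these chemoattractant receptors were called higher. Of 28 cytokine receptors, 3 were higher and 1 lower, with Il15ra at 3.57 (SE 0.28), and 3 were higher without the block. The lower call, on Il6st at -1.0 (SE 0.31), was not made without the block or without any 1 array.

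**Figure D4:**
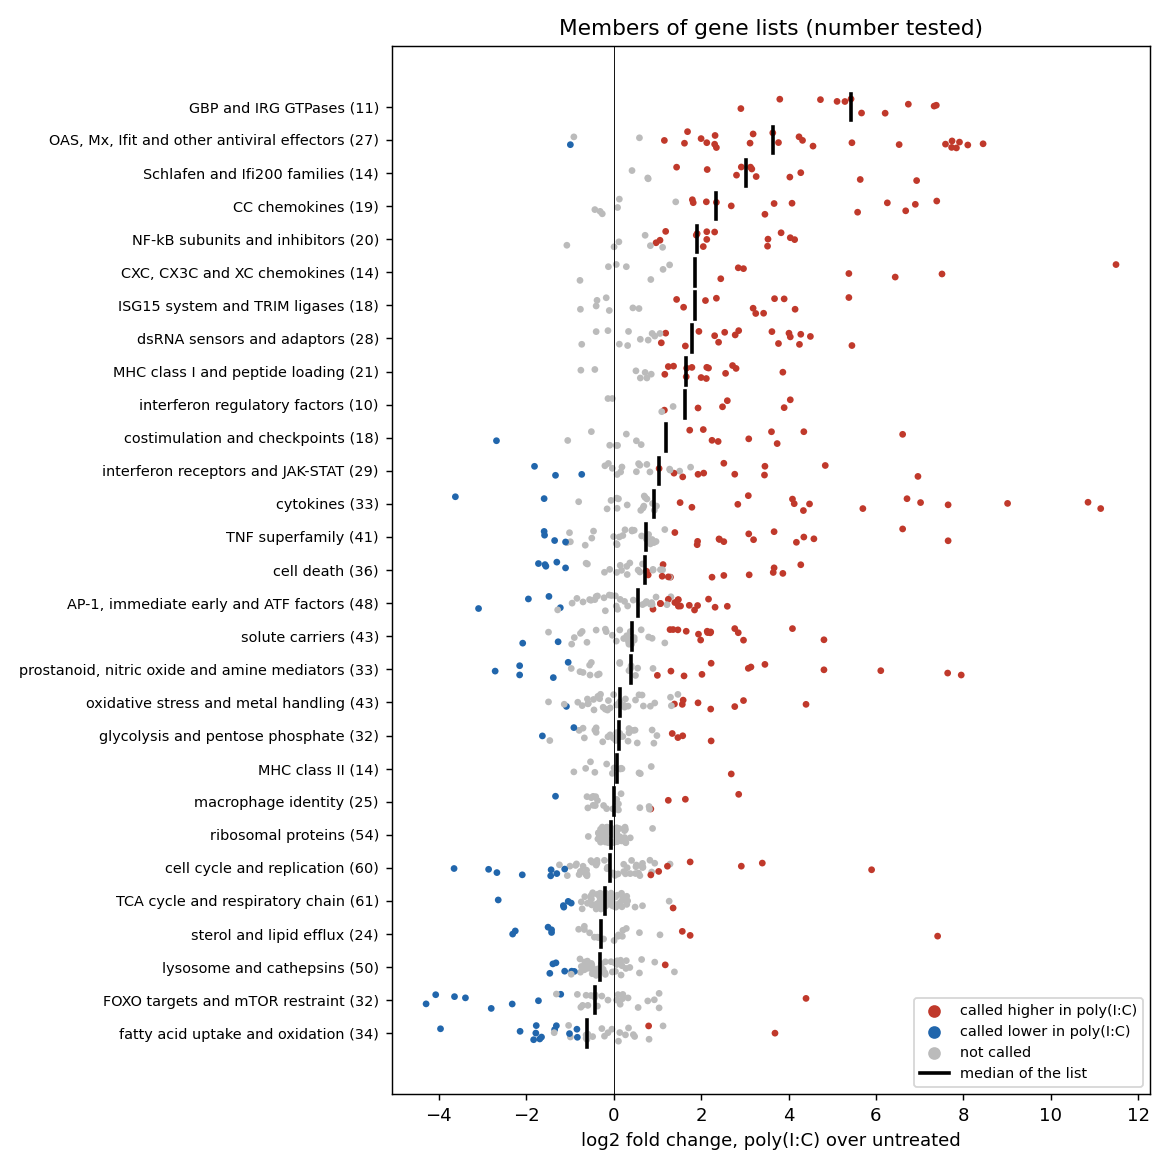
Log2 fold change, poly(I:C) over untreated, of each member of 29 gene lists, 1 point a gene, with red for called higher, blue for called lower, grey for not called and a black bar at the median. The interferon-inducible families stand at the top, ribosomal proteins cluster around 0, and the lists of fatty acid oxidation and FOXO targets stand at the bottom.

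Components of NF-kB signalling and its own inhibitors rose together. Of 20 tested, 14 were called higher and none lower, with a median of 1.90. Nfkb2, Rel, Rela and Relb, subunits of the factor, rose by 4.04 (SE 0.28), 3.53 (SE 0.34), 2.13 (SE 0.35) and 2.13 (SE 0.30). The inhibitor Nfkbia rose by 3.83 (SE 0.43) and the nuclear cofactor Nfkbiz by at least 4.14, with untreated 2 at the floor. The deubiquitinase Tnfaip3, also known as A20, was not called at 0.84 (95% interval 0.04 to 1.64), and the kinase subunit Ikbkb was at 0.01 (95% interval -0.52 to 0.54). In the TNF superfamily 14 of 41 were higher and 4 lower. Traf1 rose by 4.58 (SE 0.23), the ligand Tnfsf10, or TRAIL, by 3.67 (SE 0.28) and the receptor Tnfrsf1b by 3.20 (SE 0.43), while Tnfrsf1a was not called at 0.47 (95% interval -0.20 to 1.14). None of the 4 lower calls in this list were made without the block, and 2, 3, 1 and 3 were made without poly(I:C) 1, poly(I:C) 2, untreated 1 and untreated 2.

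Other transcription factors and kinases were divided. AP-1, immediate early and ATF genes had 15 of 48 higher and 4 lower. These higher calls numbered 6 without the block or without poly(I:C) 2, 10 without poly(I:C) 1 or without untreated 1, and 9 without untreated 2, and the lower calls 2 without the block and 1, 3, 5 and 1 without poly(I:C) 1, poly(I:C) 2, untreated 1 and untreated 2. Hif1a, the oxygen-regulated factor, rose by 2.32 (SE 0.28) and Cebpb by 2.17 (SE 0.33). Cebpa, a related factor of myeloid differentiation, was at 0.327 and 0.726 in poly(I:C) cells and at 3.98 and 4.30 in untreated cells, a log2 fold change of -3.09 (SE 0.39). Cebpa fell on both poly(I:C) arrays below both untreated ones. Among MAP kinase genes 11 of 40 were higher and 3 lower, with 7 higher without the block. The phosphatase Dusp4 and the inhibitors Spry1 and Spred1 rose by 2.38 (SE 0.30), 2.47 (SE 0.33) and 3.13 (SE 0.45). The stress genes of the Gadd45 family went both ways, with Gadd45b up by 2.61 (SE 0.31), Gadd45a at -1.87 (SE 0.31) and Gadd45g at -1.93 (SE 0.32). Map4k1, a kinase that restrains antigen receptor signals, was at 1.10 and 1.97 in poly(I:C) cells and at 8.02 and 11.3 in untreated cells, a log2 fold change of -2.69 (SE 0.30). It was called lower without any 1 of the 4 arrays as well.

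Of 21 class I and peptide-loading genes tested, 14 were called higher and none lower, with a median of 1.66, and 9 were called higher without the block. The peptide transporters Tap1 and Tap2 rose by 3.87 (SE 0.45) and 2.56 (SE 0.23), and the immunoproteasome subunits Psmb10 and Psmb9 by 2.72 (SE 0.23) and 2.13 (SE 0.34). B2m, the light chain, was already at 1160 and 659 in untreated cells, against 1950 and 1120 in poly(I:C) cells, and was not called (log2 fold change 0.76, 95% interval 0.10 to 1.42). Of 14 class II genes 1 was called higher, H2-Oa, a modulator of peptide loading, at 2.69 (SE 0.43). The class II chain H2-Aa was at 0.01 (95% interval -0.87 to 0.89), H2-Eb1 at 0.19 (95% interval -0.66 to 1.04) and the invariant chain Cd74 at 0.86 (95% interval -0.03 to 1.76). Whether class I and class II genes differ in their change was not tested.

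Signals to T cells rose in both senses. Cd40, the receptor for T cell help, was at 188 and 181 in poly(I:C) cells and at 2.16 and 1.66 in untreated cells, a log2 fold change of 6.61 (SE 0.28). Cd274, the checkpoint ligand PD-L1, was at 529 and 324 in poly(I:C) cells and at 46.3 and 24.8 in untreated cells, a log2 fold change of 3.61 (SE 0.23). Cd86, a costimulatory ligand, rose by 3.74 (SE 0.29), Tnfsf9 by 4.35 (SE 0.33) and Lgals9 by 2.25 (SE 0.28). The checkpoint Vsir, or VISTA, was at 0.925 and 1.05 in poly(I:C) cells and at 5.73 and 6.92 in untreated cells, a log2 fold change of -2.68 (SE 0.44). Cd80, the relative of Cd86, was not called at 0.52 (95% interval -0.08 to 1.12). The list had 9 of 18 genes higher and 1 lower.

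Genes of prostanoid, leukotriene and nitric oxide mediators included calls in both directions. Ptgs2, the inducible cyclooxygenase, was at 15.1 and 20.1 in poly(I:C) cells and near or under the floor in untreated cells, a rise of at least 248-fold. Ptges, which makes prostaglandin E2 from its product, rose by 6.11 (SE 0.24), and the phospholipase Pla2g4a by 2.23 (SE 0.32). Lta4h, the hydrolase that makes leukotriene B4, was at 3.36 and 3.07 in poly(I:C) cells and at 17.8 and 24.7 in untreated cells, a log2 fold change of -2.71 (SE 0.30). Alox5ap and Alox15, a partner protein and a member of the lipoxygenases, were not called at -0.97 (adjusted p 0.061) and 0.14 (95% interval -0.61 to 0.89). The prostaglandin D synthase Hpgds fell by 2.15 (SE 0.32) and the prostaglandin E2 receptor Ptger2 by 2.15 (SE 0.31). Nos2, the inducible nitric oxide synthase, was at 13.8 and 10.3 in poly(I:C) cells and at 0.977 and 1.20 in untreated cells, a log2 fold change of 3.46 (SE 0.36). The arginine transporter Slc7a2 rose by 4.81 (SE 0.30), Ass1, which remakes arginine, by 3.08 (SE 0.32), and Gch1, which makes the cofactor of nitric oxide synthase, by 3.14 (SE 0.33). Edn1, the vasoconstrictor endothelin, rose by 7.64 (SE 0.33). In all, 12 of 33 were higher and 5 lower, with 3, 4, 4 and 5 lower without poly(I:C) 1, poly(I:C) 2, untreated 1 and untreated 2.

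Acute phase, matrix and surface genes were also among those called, which over all probes tested were 10.7% higher and 8.07% lower. Complement, coagulation and acute phase genes had 10 of 37 higher and 2 lower, and 1 lower without the block or without any 1 of the 4 arrays. The protease inhibitor Serpinb2 rose by 5.14 (SE 0.52), complement factor Cfb by 3.86 (SE 0.29) and tissue factor F3, the starter of coagulation, by 3.31 (SE 0.33), while the apoptotic-cell bridging protein Gas6 fell by 1.81 (SE 0.34). Saa3, an acute phase protein of macrophages, was at 1310 and 1130 in poly(I:C) cells and at 335 and 200 in untreated cells, a log2 fold change of 2.23 (SE 0.36). The matrix list had 8 of 34 higher and 1 lower, with no lower call without poly(I:C) 1 or without untreated 2. Vcan, the proteoglycan versican, rose by 5.69 (SE 0.30) and the membrane-bound collagenase Mmp14 by 3.97 (SE 0.30), while the elastase Mmp12 was at -0.01 (95% interval -1.19 to 1.16). Adhesion genes had 5 of 32 higher and 2 lower, 3 higher without poly(I:C) 2 and 4 lower with quantile normalization, with Vcam1 at 4.0 (SE 0.33) and Cd93 at -2.17 (SE 0.31). Scavenger, Fc and lectin receptors had 8 of 31 higher and 3 lower, with 5 higher and 2 lower without the block, and 1, 3, 2 and 3 lower without poly(I:C) 1, poly(I:C) 2, untreated 1 and untreated 2. Quantile normalization gave 6 lower in that list and 3 in the matrix list. Clec4e, the lectin Mincle, rose by 5.91 (SE 0.25) and the inhibitory Fc receptor Fcgr2b by 1.42 (SE 0.30).

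Cell death genes had 13 of 36 higher and 5 lower. Cflar, which blocks caspase-8, rose by 4.28 (SE 0.23) and the inhibitor Birc3 by 3.10 (SE 0.33), while the inflammatory caspases Casp4 and Casp1 rose by 3.87 (SE 0.27) and 2.25 (SE 0.24). Bcl2, which protects mitochondria, fell by 1.55 (SE 0.28), and Mcl1, of the same family, was not called at 0.60 (95% interval 0.09 to 1.10). Higher calls numbered 8 without the block or without poly(I:C) 2 and 9 without any other single array, and lower calls 2 without the block, 5 without poly(I:C) 2 and 3 without any other. Cell cycle genes had 7 of 60 higher and 8 lower, with a median of -0.09. Over all probes tested, 10.7% were called higher and 8.07% lower. Ccnd2, a cyclin of the G1 phase, was at 24.7 and 22.7 in poly(I:C) cells and at 0.657 and 0.240 in untreated cells, a log2 fold change of 5.90 (SE 0.50). The inhibitor Cdkn1a rose by 2.92 (SE 0.35) and the proliferation marker Mki67 by 3.40 (SE 0.24). Gmnn, which blocks origin licensing, fell by 2.86 (SE 0.30), the phosphatase Cdc25b by 2.67 (SE 0.47) and the checkpoint kinase Chek2 by 3.65 (SE 0.39). Higher calls here were 4 without the block, without poly(I:C) 1 or without untreated 2. Pcna, a replication factor, was not called at 0.27 (95% interval -0.28 to 0.81).

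The largest decreases were of genes with many roles. Pparg, the nuclear receptor of fatty acid handling, was at 1.28 and 1.41 in poly(I:C) cells and at 19.7 and 22.2 in untreated cells, a log2 fold change of -3.96 (SE 0.34, adjusted p 9.2e-07). Lpin1, which makes diacylglycerol, was at 0.397 and 0.196 in poly(I:C) cells and at 6.35 and 5.21 in untreated cells, a log2 fold change of -4.37 (SE 0.42). Deptor, an inhibitor of mTOR, was at 0.993 and 0.376 in poly(I:C) cells and at 13.2 and 10.9 in untreated cells by the brighter probe. Its log2 fold changes were -4.29 (SE 0.53) by that probe and -3.73 (SE 0.39) by the other. Sesn1, which restrains mTORC1 when leucine is scarce, fell by 4.07 (SE 0.33). Tsc22d3, the glucocorticoid-induced protein GILZ, was at 7.30 and 6.39 in poly(I:C) cells and at 90.0 and 80.7 in untreated cells, a log2 fold change of -3.64 (SE 0.72). The 2 groups lay apart for all 5 genes, which holds by the rule that named the 20 largest decreases. The largest decrease was that of Tmem273, at 0.742 and 0.494 in poly(I:C) cells and at 19.9 and 11.0 in untreated cells, a log2 fold change of -4.61 (SE 0.47). Others among the 20 largest were the histone deacetylase Hdac5 at -3.79 (SE 0.40), beta-arrestin Arrb1, which ends signals of many receptors, at -3.70 (SE 0.40), the cannabinoid receptor Cnr2 at -3.59 (SE 0.47) and the orphan receptor Gpr162 at -3.60 (SE 0.37). Cdo1, a cysteine dioxygenase, was called at -3.61 (adjusted p 0.011), but not without poly(I:C) 1 (-2.49, adjusted p 0.18), without untreated 2 (-2.80, adjusted p 0.14) or without the block (adjusted p 0.050).

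FOXO targets and genes that restrain mTOR had 8 of 32 called lower and 1 higher, with a median of -0.42. Fbxo32, the ubiquitin ligase atrogin-1, fell by 3.39 (SE 0.38), the MYC antagonist Mxd4 by 2.80 (SE 0.42) and the lysosomal GTPase Rragd by 1.72 (SE 0.36). The higher member was Sod2, the mitochondrial superoxide dismutase, at 4.40 (SE 0.36), which is also a known target of NF-kB. Txnip, a glucose-responsive gene, was not called at -0.63 (95% interval -1.30 to 0.03). Fatty acid uptake and oxidation genes had 12 of 34 lower and 2 higher, with a median of -0.62. The lower calls were 7 without the block, 6 without poly(I:C) 1, 8 without poly(I:C) 2 or without untreated 1, and 9 without untreated 2, and the higher call without any 1 array was 1. Acaa2, the last enzyme of mitochondrial beta-oxidation, fell by 1.83 (SE 0.34), the carnitine enzyme Crat by 1.77 (SE 0.33) and Ech1 by 1.35 (SE 0.24). Binding proteins for fatty acids went both ways. Fabp4 was at 78.3 and 61.2 in poly(I:C) cells and at 371 and 251 in untreated cells, a log2 fold change of -2.14 (SE 0.34). Fabp3 was at 333 and 154 in poly(I:C) cells and at 28.8 and 10.7 in untreated cells, a log2 fold change of 3.69 (SE 0.28). Fabp5 was not called at -0.04 (95% interval -0.76 to 0.68).

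Sterol genes had 3 of 24 higher and 5 lower, against 10.7% higher and 8.07% lower over all probes tested. Ch25h, which makes an oxysterol that blocks virus entry, rose by 7.41 (SE 0.65). Cyp27a1, which makes another oxysterol, fell by 2.25 (SE 0.27), and Eepd1 by 2.31 (SE 0.26), while the lipoprotein Apoe was not called at -0.37 (95% interval -1.22 to 0.48). Without the block 1 was higher and 3 lower, and the same counts were found without poly(I:C) 1. Without untreated 2, 1 was higher. Cholesterol and fatty acid synthesis had 1 of 29 higher and 4 lower, with 1 lower without the block, 3 without poly(I:C) 1 or without untreated 2, and 1 without either of the other 2 arrays. The higher call was made without poly(I:C) 2 and not without any other array.

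Calls in glycolysis were as frequent as over all probes, of which 18.8% were called. The list had 4 of 32 higher, among them Hk2 (1.58, SE 0.31) and Pfkp (2.23, SE 0.36), which run its committed steps, and 2 lower. Gapdh was at 0.07 (95% interval -0.56 to 0.70) and Ldha at 0.14 (95% interval -0.42 to 0.69). Its higher calls were 2 without untreated 1, and its lower calls 1 without any 1 array and 4 with quantile normalization. The tricarboxylic acid cycle and respiratory chain had 1 of 61 higher and 5 lower, and 2 lower without the block or without any 1 array, but 14 lower with quantile normalization. The higher call was not made without the block, and 2 were higher without untreated 2. Idh1, the cytosolic isocitrate dehydrogenase, was at 2.90 and 2.36 in poly(I:C) cells and at 15.7 and 16.8 in untreated cells, a log2 fold change of -2.64 (SE 0.38). Lysosomal genes had 1 of 50 higher and 6 lower, 2 lower without the block, 1, 3, 2 and 3 without poly(I:C) 1, poly(I:C) 2, untreated 1 and untreated 2, and 13 with quantile normalization. The higher call was made neither without the block nor without poly(I:C) 1. Of these Smpd1, the acid sphingomyelinase, fell by 1.39 (SE 0.26), and the protease Ctss was not called at 0.17 (95% interval -0.46 to 0.80). None of the 54 ribosomal protein genes was called in limma, and their log2 fold changes ran between -0.58 and 0.89 with a median of -0.07. With quantile normalization 4 of them were called lower and that median was -0.48.

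Stress and transport genes included calls in both directions, as did all probes tested, with 10.7% higher and 8.07% lower. Of 43 oxidative stress and metal genes, 8 were higher and 1 lower, with Slc7a11, the cystine importer, at 2.97 (SE 0.27) and Cybb, the catalytic subunit of the phagocyte oxidase, at 2.77 (SE 0.27). Quantile normalization called 7 of them higher and 7 lower, and no lower call was made without the block, without poly(I:C) 1 or without poly(I:C) 2. Heat shock and chaperone genes had 6 of 41 higher and 1 lower, with 2 higher without the block, 3 without either poly(I:C) array and 4 without either untreated array, and 3 higher and 5 lower with quantile normalization. The 1 lower call, on P4hb, was not made without the block or without any 1 array. The inducible heat shock genes Hspa1a and Hspa1b, which are nearly identical copies that a probe may not tell apart, rose by 3.67 (SE 0.31) and 3.31 (SE 0.28). Solute carriers had 15 of 43 higher and 2 lower, with Slco3a1 at 4.09 (SE 0.25) and Slc37a2, a sugar phosphate carrier, at -2.08 (SE 0.27). TGF-beta and Wnt genes had 10 of 54 higher and none lower, but 4 higher without the block, 7 without poly(I:C) 1, 4 without poly(I:C) 2, 6 without untreated 1 and 5 without untreated 2.

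Signalling and chromatin genes outside the immune lists included several decreases. Their counts stand beside 10.7% called higher and 8.07% called lower over all probes tested. G protein signalling had 3 of 49 higher and 6 lower, among them Rgs2, Rgs10 and Rgs18, which end G protein signals, at -2.07 (SE 0.23), -2.48 (SE 0.30) and -2.42 (SE 0.43). The higher calls were 2 without the block, without poly(I:C) 2 or without untreated 2. Nuclear receptors and coregulators had 2 of 35 higher and 5 lower, with 3 higher without poly(I:C) 2 or untreated 2, and 3, 2, 3 and 4 lower without poly(I:C) 1, poly(I:C) 2, untreated 1 and untreated 2. The glucocorticoid receptor Nr3c1 rose by 2.14 (SE 0.39), and Rxrg, a partner of PPARg and LXRs, fell by 1.5 (SE 0.28). The orphan receptor Nr6a1 had 2 probes that disagreed, at -1.15 (SE 0.31) for the brighter and 3.03 (SE 0.41) for the dimmer. The call on the brighter probe was not made without poly(I:C) 1 (-1.20, adjusted p 0.079), poly(I:C) 2 (-1.11, adjusted p 0.10), untreated 1 (-1.0, adjusted p 0.13) or the block (adjusted p 0.22). Chromatin enzymes had 3 of 46 higher and 5 lower, with 1 higher and 3 lower without the block. Without poly(I:C) 1, poly(I:C) 2, untreated 1 and untreated 2 they had 1, 2, 1 and 2 higher and 4, 3, 3 and 5 lower. Dnmt3a, a DNA methyltransferase, was at 14.4 and 19.5 in poly(I:C) cells and at 115 and 98.4 in untreated cells, a log2 fold change of -2.67 (SE 0.37). Genes listed for alternative activation had 7 of 22 higher and 3 lower, and the lower ones were 1 without the block, 2 without untreated 1 and 1 without any other single array. Retnla, a product of that state, was not called at 0.04 (95% interval -0.68 to 0.76).

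The poly(I:C) arrays were also compared with the 2 arrays of LPS-treated cells, which shows directly where the stimuli differ. Of 9508 probes tested, 2 were called (0.021%), both higher with poly(I:C), and 299 had an unadjusted p under 0.05 (without the block 1 was called and 52 had such a p). Ifna7 had log2 levels of 4.67 and 3.42 in poly(I:C) cells and of -0.98 and -0.71 in LPS cells, near those of untreated cells at -0.42 and -0.78. The difference was 4.88 (SE 0.34, adjusted p 7.7e-06), or 29.5-fold. Genes of the interferon alpha family are close in sequence, and whether this probe also binds others was not tested. The other was probe 516, which has no gene symbol in the annotation used here, at log2 levels of 3.01 and 2.11 in poly(I:C) cells and of 0.59 and -0.91 in LPS cells, a difference of 2.72 (SE 0.32, adjusted p 0.0028). Next by p was Hsd17b11, a lipid droplet dehydrogenase, with a difference of -1.79 (SE 0.30, adjusted p 0.096). The transcription factor Lhx4 had log2 levels of 5.63 and 5.01 in poly(I:C) cells and of 4.36 and 3.67 in LPS cells, a difference of 1.30 (SE 0.30) that was not called. Other differences that were not called were those of Mxd1, a MYC antagonist, at 1.68 (SE 0.43), and the small GTPase Rnd3 at 1.70 (SE 0.39). The regulator of G proteins Rgs5, at -1.96 (SE 0.47), and Cadps, at -3.07 (SE 0.78), were not called either. Cadps lay at or near the floor on both poly(I:C) arrays. Among 1784 probes called against untreated cells and tested here, the 95% interval of the difference from LPS lay within 2-fold for 929. For the others the arrays leave differences of 2-fold or more possible. Without stated doses and times, a matched strength of the 2 stimuli cannot be assumed.

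**Figure D5:**
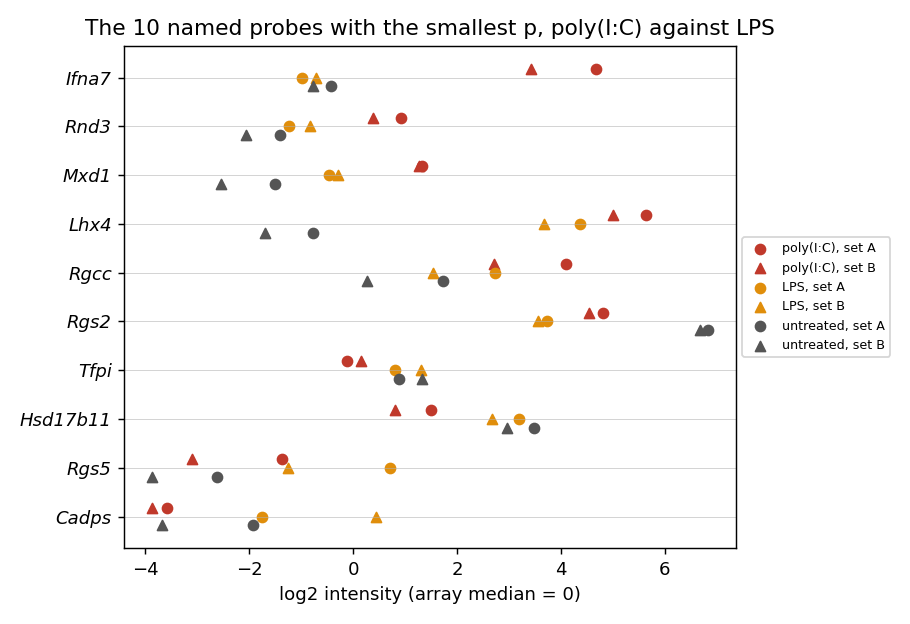
Log2 intensity (array median at 0) on the poly(I:C) arrays (red), LPS arrays (orange) and untreated arrays (grey) for the 10 named probes with the smallest p in the comparison of poly(I:C) with LPS, with circles for set A and triangles for set B. Ifna7 is the 1 named probe called, with log2 levels of 4.67 and 3.42 in poly(I:C) cells and of -0.98 and -0.71 in LPS cells.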

How the data were processed

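RNA of mouse macrophages was measured on 14 one-colour arrays. The deposited values are linear intensities of 10012 probes, which the authors had scaled before deposit to a median of 1 on each array, as the values show. The labels state no scanner, background method or scaling method. From the deposited intensity, values were raised to the 5th percentile of all positive values (0.0686, log2 -3.87) and the log2 was taken. Probes above the 20th percentile of their array on at least 2 of 14 arrays were kept (9584), and those with a value on all 4 arrays compared were tested (9515, so 69 were left out). Group means were fitted over all 14 arrays with limma 3.58.1 in R 4.3.3, with the array set as a block (6 residual degrees of freedom, or 7 without it), an intensity trend and Benjamini-Hochberg adjustment, two-sided. The block follows the pairing of arrays by set. Deviations of arrays with the same title number correlated at 0.35 to 0.67 among 6 groups, and at -0.54 to -0.39 with GW7845 plus LPS, whose numbers run the other way. The fit was tested on simulated data.

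Names came from the platform annotation (8983 probes with 1 symbol, 1 with several, 1028 with none), 8975 of them matched to RefSeq. A gene with several probes is represented by the probe that is brightest over all arrays, which gives 8410 genes. Lists are described by counts and medians, with no test. The genes named are the 20 largest increases and decreases that do not overlap between groups, up to 8 called members in each direction and 4 bright members not called in each list, all sensors, interferons and interferon regulatory factors, the brightest probes on the poly(I:C) arrays, and the called and smallest-p probes against LPS. Members and lists were chosen with earlier results of these data known. The upstream window of Mxi1, which the rule also named, is not shown. Alternatives changed the block, the arrays fitted, the normalization, the floor, the filter and the trend, and left out each array in turn.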

Additional observations from a re-analysis of the deposited data

How the results depend on the processing

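With the array set as a block, 1786 probes were called against untreated cells (1018 higher, 768 lower). Without the block there were 848 (582 higher, 266 lower), all among the 1786. A replicate block by title number, which pairs the arrays compared here in the same way but not those of GW7845 plus LPS, gave 1194 (746 higher, 448 lower). Fitting the compared arrays alone gave 2993 (1581 higher, 1412 lower). Leaving out 1 array at a time gave 1087 to 1224 calls (690 to 764 higher, 397 to 486 lower), where the lone array of a group is assumed to vary like the other groups. Quantile normalization gave 849 higher and 975 lower. Floors at the 1st and 10th percentile, no filter, a filter at the 40th percentile, no intensity trend and leaving out the first array of GW7845 with poly(I:C) gave 1596 to 1863 calls. Against LPS there were 2 calls, 1 without the block, 2 with the replicate block by title number, 11 with the compared arrays alone and 1 to 5 with 1 array left out. No named gene and no list median that was called or at least 0.5 from 0 changed its direction under any of these settings. The cause of these changes was not tested. No detection calls were used, so for probes near the floor the signal over background limits the size of a fold change.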
